A study of Caenorhabditis elegans with 2 samples.

Results

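The genes described here are sls-2.2, sls-2.8 and sls-2.9, 3 of the 18 genes of Caenorhabditis elegans that encode the SL2 spliced leader RNA. They were selected on the measured values: a peak that the authors kept after thresholding had its summit within 200 bp of each gene. This holds in the list that compares the replicates, while other lists also kept peaks at sls-2.1 and sls-2.4. The annotation used (Ensembl release 115, WBcel235) holds 46926 genes, of which 30 have names that begin with sls-. Of these 30, 18 are SL2 genes and 12 are genes of the SL1 spliced leader. The other 15 SL2 genes and the 12 SL1 genes serve as the comparison throughout.

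The data are chromatin immunoprecipitation with sequencing (ChIP-seq) of a tagged DAF-8, a SMAD protein that carries TGF-beta signals and helps to decide whether larvae enter the dauer stage. Both libraries came from strain OP790, which carries the transgene wgIs790. This transgene holds daf-8 fused to TY1, EGFP and 3xFLAG tags, together with unc-119(+), in worms with the unc-119 (tm4063) allele. Whole L4 larvae, 47 hours old, had been synchronised by starving L1 larvae obtained after bleaching, and the tagged protein was recovered with an antibody against GFP. There was 1 group of 2 biological replicates. The tagged protein is made from a transgene, and no strain without it was analysed here, so signal that depends on the tagged protein and signal that does not cannot be told apart. The peak files hold no read counts, so the depth of each library is unknown. Whole worms also mix all tissues.

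In nematodes, a short leader is cut from a spliced leader RNA and joined to the front of another transcript, a reaction called trans-splicing. SL1 is placed mainly on transcripts of single genes and on the first gene of an operon, while SL2 is placed mainly on downstream genes of operons, which are transcribed together as 1 precursor. Spliced leader RNAs are small nuclear RNAs that carry a binding site for Sm proteins behind the leader. They are transcribed from compact promoters that the SNAPc complex recognises through a proximal sequence element.

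The sequences of sls-2.2 and sls-2.8 are shown because, with the replicates compared, the summits lay 6 and 99 bp before these genes. That of sls-2.1 is shown because it carries the same leader as sls-2.2 and had the peak closest below the threshold. All are from the RefSeq genome of WBcel235 (ce11) and run 5′ to 3′ along the gene strand. In the gene sequences the capitals mark the leader, taken as the bases up to the AG before the GT that opens the donor site. In the sequences before the genes the capitals mark the 6 bases that start 48 bases upstream. The genes lie at II:5543598-5543707 on the plus strand (sls-2.2), III:12250465-12250575 on the plus strand (sls-2.8) and II:5844865-5844974 on the plus strand (sls-2.1). An SL1 gene, at V:17129106-17129203 on the minus strand, stands last for contrast.
sls-2.2 gene: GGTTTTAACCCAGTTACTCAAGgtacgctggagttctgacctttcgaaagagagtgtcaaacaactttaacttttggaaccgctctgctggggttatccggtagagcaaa
sls-2.8 gene: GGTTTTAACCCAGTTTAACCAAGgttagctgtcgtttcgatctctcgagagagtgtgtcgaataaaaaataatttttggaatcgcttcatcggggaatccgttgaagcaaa
sls-2.1 gene: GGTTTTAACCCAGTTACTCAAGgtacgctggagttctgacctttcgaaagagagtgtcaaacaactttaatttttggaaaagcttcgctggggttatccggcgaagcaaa
sls-2.2, 100 bases before the gene: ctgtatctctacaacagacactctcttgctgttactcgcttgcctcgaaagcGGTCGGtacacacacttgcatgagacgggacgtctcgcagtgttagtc
sls-2.8, 100 bases before the gene: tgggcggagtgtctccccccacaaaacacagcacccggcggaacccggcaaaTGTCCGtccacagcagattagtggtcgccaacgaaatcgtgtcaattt
SL1 gene: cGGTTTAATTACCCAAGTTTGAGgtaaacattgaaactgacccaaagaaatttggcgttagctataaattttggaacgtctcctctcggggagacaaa

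The leader of sls-2.2 has 22 bases and is shared by 4 SL2 genes, sls-2.1, sls-2.2, sls-2.3 and sls-2.4. The leader of sls-2.8 has 23 bases and that of sls-2.9 has 21, and no other spliced leader gene carries either of them. The 18 SL2 genes hold 11 different leaders, of 21 to 23 bases, 14 of them with 22. The gene bodies of the 3 members were 73.2% identical between sls-2.2 and sls-2.8, 75.7% between sls-2.2 and sls-2.9, and 75.9% between sls-2.8 and sls-2.9. Over all 153 pairs of SL2 genes the identity ranged from 60.2 to 99.1%, with a median of 73.9%. All 3 member pairs lay close to that median.

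Upstream of the genes the members had less in common. The 100 bases before the gene were 30.0% identical between sls-2.2 and sls-2.8, 44.7% between sls-2.2 and sls-2.9, and 46.2% between sls-2.8 and sls-2.9, beside a median of 46.6% over all SL2 pairs. The word TGTCGG, searched on the gene strand around 48 bases upstream, was present letter for letter in 10 SL2 genes and with 1 mismatch in 6. Among the members, sls-2.9 had the exact word, and sls-2.2 and sls-2.8 each had 1 mismatch, as the capitals above show. Anywhere in the 100 bases before the gene, TGTCGG occurred at 12 of 18 SL2 genes, or 66.7%. The same count gave 0.781% of protein-coding genes and 6.64% of the other tRNA, snRNA, snoRNA and rRNA genes. TGTCGG was the commonest 6-base word of these SL2 sequences themselves, so nothing is read from that difference. The word AATTTTTGG, of the kind that Sm proteins bind, was exact in 13 SL2 genes and had 1 mismatch in 4. It was exact in sls-2.8, from position 71, and in sls-2.9, from position 68, and occurred in 1.64% of the other small RNA genes.

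In sls-2.2 the same site, from position 69, had 1 mismatch, where sls-2.1 and sls-2.3 both differ from it as C71T, counted from 1 at the first base of the gene with the base of sls-2.2 given first. In all, sls-2.2 differed from sls-2.3 at 3 positions (C71T, C81T and G87A) and from sls-2.1 at 8. The likeness was weaker before the genes, where 100 bases of sls-2.2 were 79% identical to those of sls-2.1 and 69.3% to those of sls-2.3. In the main list the signals were 89.3 at sls-2.2, 59.3 at sls-2.1 and 35.5 at sls-2.3. At sls-2.4, which carries the same leader, the 100 bases before the gene were 66.3% identical to those of sls-2.2. Its signal was 71.6. Whether likeness before the genes bears on signal was not tested.

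**Figure D1:**
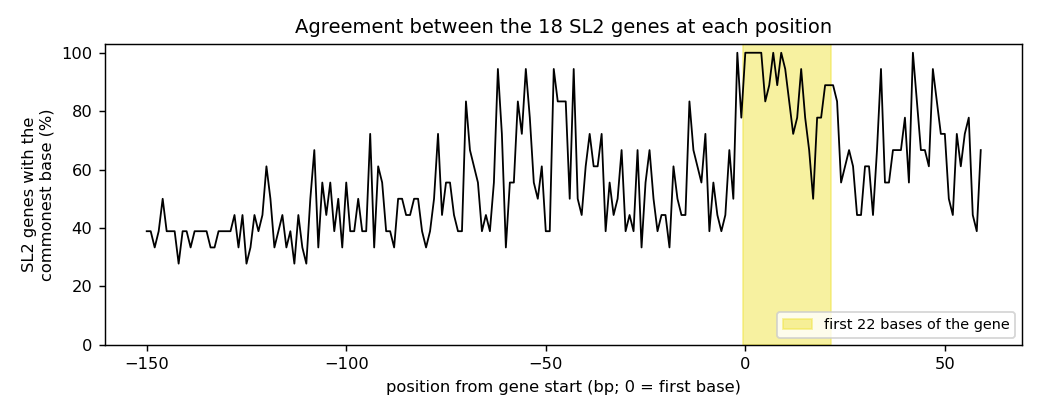
Share of the 18 SL2 genes (%) that carry the commonest base at each position, from 150 bp before the gene start to 59 bp after it. The first 22 bases, shaded, average 86.9%, the stretch from 75 to 51 bp upstream 59.3%, and that from 150 to 101 bp upstream 40.1%.

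Agreement between the 18 SL2 genes was highest over the leader and lower upstream. On average 86.9% of the genes carried the commonest base over the first 22 positions, of which 7 were the same in all. The mean was 55.6% from 25 to 1 bp upstream, 58.7% from 50 to 26 bp upstream and 59.3% from 75 to 51 bp upstream. Beyond that it declined to 46.4% from 100 to 76 bp upstream and 40.1% from 150 to 101 bp upstream. Positions were counted from the gene start without gaps, and no value for unrelated sequences was computed, so low percentages are not read as agreement. Upstream of the gene, the plot of agreement by position shows narrow maxima and no long block shared by all genes.

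For the peaks, 4 pairs of lists were read, each with all ranked peaks and a shorter thresholded list. A pair was given for replicate 1 alone, for replicate 2 alone, for the pooled reads, and for the comparison of the true replicates, which is the main list. Which of the latter 2 pairs is which was inferred, from a file name and because the compared signals listed at the members in the main list, such as 43.5 and 42.9 at sls-2.2, are those of replicate 1 and replicate 2 alone. The threshold was set on the IDR, or irreproducible discovery rate, which estimates how many peaks of a given rank fail to recur, and the highest IDR kept in the main list was 0.00997. The main list held 101032 ranked peaks, of which 240, or 0.238%, were kept. Signal is the height of a peak in the authors' units, and in the main list it equals that in the pooled list, and at the strongest peak of each member it was higher than in either replicate alone. The sources used here do not say how it was scaled to depth. Median signal over all ranked peaks was 17.0 in the main list, 12.3 in replicate 1 and 12.7 in replicate 2.

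In the main list the highest signal at any spliced leader gene was at sls-2.2, while in replicate 1 alone sls-2.4 was higher. At sls-2.2 it reached 43.5 in replicate 1 and 42.9 in replicate 2, a mean of 43.2 ± 0.453 (SD, n = 2), and 89.3 in the main list. That peak ranked 59 of 101032 by signal, with an IDR of 0.00141 and bounds at II:5543430-5543753. The replicates differed by little at this gene.

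At sls-2.8 the signal was 31.9 in replicate 1 and 35.9 in replicate 2, a mean of 33.9 ± 2.83 (SD, n = 2), and 68.8 in the main list. The peak, at III:12250204-12250527, ranked 168 and had an IDR of 0.00493. Replicate 2 was slightly the higher of the replicates here. A second peak of replicate 2, with a signal of 12.8, had its summit within the gene, 28 bp after its start.

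At sls-2.9 the signal was 37.0 in replicate 1 and 26.9 in replicate 2, a mean of 31.9 ± 7.14 (SD, n = 2), and 60.3 in the main list. The peak lies at I:13297531-13297854, and the gene at I:13297877-13297985 on the plus strand. It ranked 304 and had an IDR of 0.00942. The replicates were farther apart than at the other members, replicate 1 being 1.38 times replicate 2. Given the spread at sls-2.9, its level and that of sls-2.8 were not separated in the replicates, while both replicates at sls-2.2 lay above all replicate values of the other 2 members.

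Each member passed the threshold when the replicates were compared, but rarely within a replicate. Only the main list compares the replicates with each other. The IDR values of the single-replicate and pooled lists are therefore not the same measure as those of the main list. Replicate 1 alone gave IDR values of 0.0110 at sls-2.2, 0.124 at sls-2.8 and 0.0304 at sls-2.9, all above the threshold. Replicate 2 alone gave 0.00927 at sls-2.2, which was kept, 0.0521 at sls-2.8 and 0.367 at sls-2.9. The only thresholded peak at a member in a single replicate was therefore that of sls-2.2 in replicate 2. In the pooled lists the members had IDR values of 0.00120, 0.00362 and 0.00782, in the order sls-2.2, sls-2.8, sls-2.9.

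**Figure D2:**
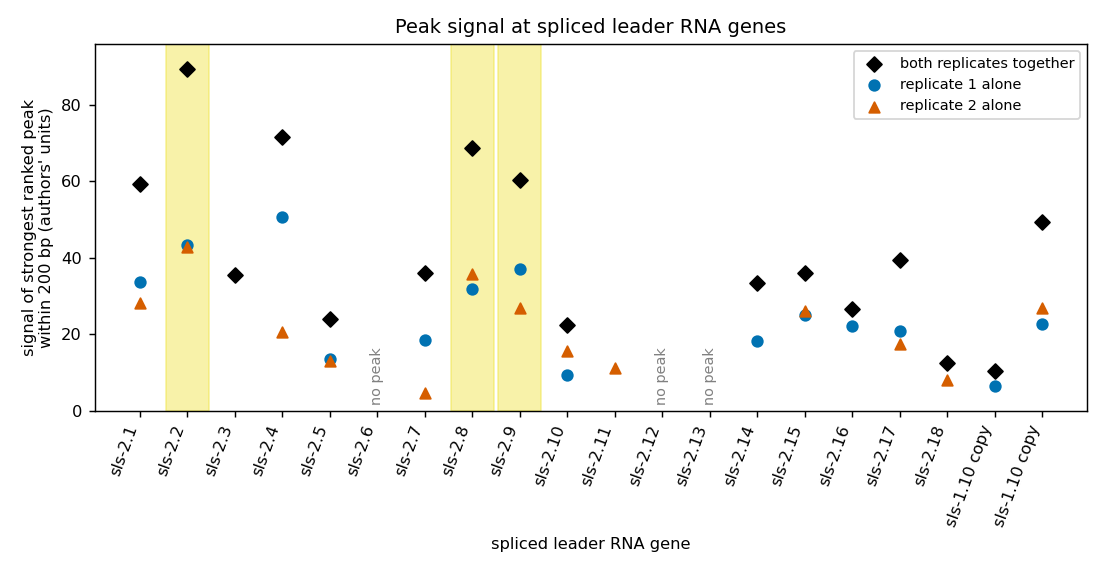
Signal of the strongest ranked peak (authors' units) with its summit within 200 bp, for the 18 SL2 genes and the 2 SL1 genes that have one. Diamonds are the main list, circles replicate 1 alone, triangles replicate 2 alone, and the 3 members are shaded. In the main list sls-2.2 is highest at 89.3, and the non-member sls-2.4 at 71.6 lies above sls-2.8 and sls-2.9.

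Among the 30 spliced leader genes, the 3 members were the only ones with a thresholded peak in the main list, as the selection requires. The same holds for 94 of 1131 tRNA, snRNA, snoRNA and rRNA genes, or 8.31%, and for 5 of 99 snRNA genes not named sls-, or 5.05%. Because the genes were selected on these peaks, nothing is read from that difference. The pooled list kept peaks at 5 spliced leader genes, adding sls-2.1 and sls-2.4, where 9.37% of small RNA genes had one. Replicate 1 alone kept peaks at 1 spliced leader gene, sls-2.4, and replicate 2 alone at 1, sls-2.2, beside 2.21% and 2.92% of small RNA genes.

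The threshold divided the genes finely. Just inside it was sls-2.9, with an IDR of 0.00942 and a signal of 60.3, and just outside it was sls-2.1, with an IDR of 0.0104 and a signal of 59.3. The signal of sls-2.1 was 33.6 in replicate 1 and 28.1 in replicate 2, so its replicate values fell within the range of those at sls-2.9. The pooled list gave sls-2.1 an IDR of 0.00906 and kept it. A second pooled peak at sls-2.1, 247 bp after the gene start with a signal of 26.4, was kept as well.

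The other gene left out despite a high signal was sls-2.4, at 71.6 in the main list, above sls-2.8 and sls-2.9. Its signal was 50.6 in replicate 1, higher than at any member there, and 20.5 in replicate 2, lower than at any member there. The ratio of the replicates was 2.47 and the IDR 0.0267. The pooled list, which does not compare the replicates, gave it an IDR of 0.00515. Signal alone thus did not separate the members from the rest.

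Ranked peaks, with no threshold, were found at 16 of the 30 genes in the main list. They comprised 14 of 18 SL2 genes and 2 of 12 SL1 genes. For reference, 75.6% of all tRNA, snRNA, snoRNA and rRNA genes and 58.2% of all annotated genes had a ranked summit within 200 bp, so a ranked peak at an SL2 gene was near the background. The 11 other SL2 genes with a peak had signals from 12.6 to 71.6, with a median of 35.5. Next among the non-members after sls-2.4 and sls-2.1 was the SL1 gene shown above, listed at 49.4 with an IDR of 0.0441, a value that repeated sequence keeps from being compared with those of SL2 genes, as described below. No ranked peak of the main list lay at sls-2.6, sls-2.11, sls-2.12 or sls-2.13.

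The only other spliced leader gene within 10 kb of a member was sls-2.3, which lies 456 bp from sls-2.2 in the opposite orientation. Its strongest peak in the main list had a signal of 35.5 and an IDR of 0.138, with its summit 253 bp from the gene start, beyond the far end of the gene. The ranked lists of the single replicates held no peak within 200 bp of sls-2.3. The main list nevertheless gave compared signals of 19.4 and 21.9 for its peak there. The main-list signals at this facing pair were therefore 89.3 and 35.5. The 2 genes differ at 3 positions, and the 100 bases before them were 69.3% identical. For sls-2.4, with a signal of 71.6, those bases were 66.3% identical to those of sls-2.2. The reason for the difference in signal was not tested.

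Peaks around each member were lower than the peak at the gene. Within 5000 bp of sls-2.2, the main list held 13 other peaks, with a median signal of 22.8 and a highest of 38.4. The signal at sls-2.2 was 3.92 times that median. Around sls-2.8 there were 11 other peaks, with a median of 16.5 and a highest of 30.4, and the gene stood at 4.17 times the median. Around sls-2.9 there were 8, with a median of 15.2 and a highest of 30.9, and the gene stood at 3.96 times the median.

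In replicate 1 alone the signal was 3.64 times the median of the surrounding peaks at sls-2.2, 3.19 times at sls-2.8 and 4.88 times at sls-2.9. In replicate 2 alone these ratios were 3.04, 2.27 and 2.41. All 3 members stood above every neighbouring peak of the same list in both replicates. So did the non-members sls-2.1, sls-2.15 and sls-2.17, so this was not particular to the members. In the main list the ratio was 4.87 at sls-2.1 and 4.44 at sls-2.4, above all 3 members. The members were selected for their peaks, so these ratios are a description.

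**Figure D3:**
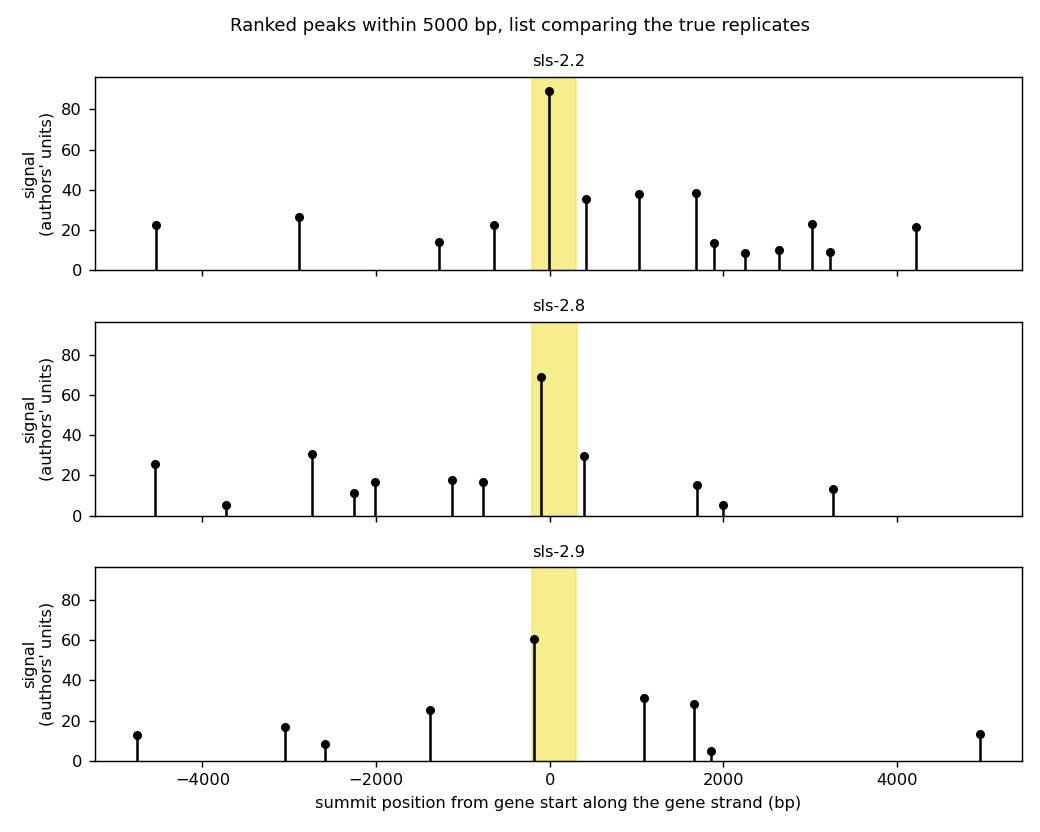
Signal (authors' units) of every ranked peak of the main list against the distance of its summit from the gene start, within 5000 bp of the 3 members. The shaded band is the gene with 200 bp on each side. In each panel the tallest peak is the one in the band, at 89.3, 68.8 and 60.3.

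The summits did not take the same place at the 3 genes. At sls-2.2 the summit lay 6 bp before the gene start in the main list and in replicate 1, and 53 bp before it in replicate 2. At sls-2.8 it lay 99 bp before the start in the main list, 52 bp in replicate 1 and 172 bp in replicate 2. At sls-2.9 it lay 184 bp before the start in the main list, 185 bp in replicate 1 and 166 bp in replicate 2. All were upstream. At the non-members sls-2.1 and sls-2.4 the summits of the main list lay inside the gene, 16 and 64 bp after the start. In replicate 1 they also lay inside, 55 and 64 bp after it. In replicate 2 the summit lay 2 bp before the start of sls-2.1 and 138 bp after that of sls-2.4, past its end. The labels give sonicated fragments of 200 to 800 bp.

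Other annotated genes shared these positions. The summit of the strongest peak at sls-2.9 lay inside the tRNA-Lys gene M01E5.t1, of 73 bp, in all 4 ranked lists, whereas sls-2.9 itself began 184 bp away. It also lay inside the non-coding RNA gene M01E5.8, which overlaps that tRNA gene. That peak ended before sls-2.9 began. Weaker ranked peaks overlapped sls-2.9 itself in 2 lists, with a signal of 18.1 in replicate 2, its summit 202 bp after the gene start, and of 14.8 in the pooled list, at 215 bp. Neither was thresholded, and the main list and replicate 1 had no such peak. The tRNA sequence has 25 identical copies in the genome, and words of 50 bases in this peak occurred up to 27 times. Whether the signal belongs to the tRNA gene or to sls-2.9 was not tested. Given only to its nearest small RNA gene, a choice made after seeing the data, the peak passes to the tRNA gene and 2 spliced leader genes keep a thresholded peak.

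The summit of the main list at sls-2.2 lay inside the antisense non-coding RNA gene C17C3.23, at II:5543581-5543698, which overlaps sls-2.2. The nearest protein-coding gene, ins-13, which encodes an insulin-like peptide, was 920 bp from the summit, so sls-2.2 was the member farthest from protein-coding genes. At sls-2.8 the summit lay between tim-1, whose start was 202 bp away, and Y75B8A.23, whose start was 294 bp away on the other side. An antisense non-coding RNA gene, Y75B8A.49, overlaps sls-2.8 and was 97 bp from the summit, beside 99 bp for sls-2.8. Another, R12E2.18, overlaps the non-member sls-2.4. The gene tim-1 encodes a relative of the clock protein Timeless. In replicate 2 the tim-1 start, at 129 bp, was nearer to the summit than sls-2.8, at 172 bp. Near sls-2.9, the end of top-1, which encodes a DNA topoisomerase, was 135 bp from the summit, and sepa-1, which encodes a protein cleared by autophagy in embryos, was 511 bp away on the other side. None of the 3 members lies inside a protein-coding gene.

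**Figure D4:**
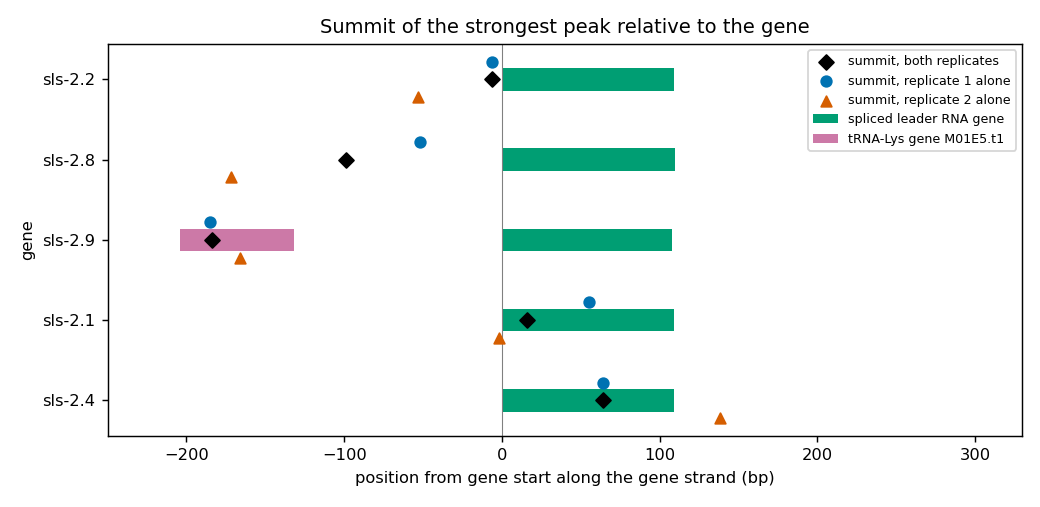
Position (bp from gene start, along the gene strand) of the summit of the strongest peak at the 3 members and at sls-2.1 and sls-2.4. Green bars are the spliced leader genes and the pink bar is the tRNA-Lys gene; diamonds are the main list, circles replicate 1, triangles replicate 2. The 3 summits at sls-2.9, from 185 to 166 bp before the gene, all fall on the tRNA gene.

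Repeated sequence can leave reads without a unique place, so the share of 50-base words that occur once in the genome was counted in each gene with 200 bp on either side. Within the strongest main-list peak of each member this share was 86.2% at sls-2.2, 100% at sls-2.8 and 86.2% at sls-2.9. In the gene with 200 bp on either side it was 91.8% at sls-2.2, 100% at sls-2.8 and 95% at sls-2.9. The other SL2 genes ranged from 80.0 to 100%, with a median of 93.5%, and the members lay within that range. SL1 genes ranged from 0 to 29.4%, with a median of 0. They are repeated within 13954 bp of 5S rRNA genes at V:17118154-17132107. The sources used here do not say how reads with several matches were placed, so the few peaks at SL1 genes cannot be compared with those at SL2 genes.

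The letters GTCT, to which SMAD proteins are known to bind, were searched on both strands (as GTCT or AGAC) in the 101 bp centred on each main-list summit. There were 2 matches at sls-2.2, 1 at sls-2.8 and 2 at sls-2.9. At least 1 match was present in 50.4% of windows at thresholded peaks and in 39.9% at all ranked peaks. Among the non-members, the summit at sls-2.3 had 3, more than any member, that at sls-2.1 had 1 and that at sls-2.4 had none. The share of G and C in the same windows was 51.5, 54.5 and 47.5% at the members, in the order sls-2.2, sls-2.8, sls-2.9, beside a mean of 48.6% at thresholded and 38.7% at ranked peaks.

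Small RNA genes of other kinds with like signals were sought among the 498 that had a ranked peak in all 4 lists, by the distance between log2 signals over the 4 lists. Closest to sls-2.2 were the tRNA-Ala gene T08A9.t1, at a distance of 0.06 and with signals of 44.5 in replicate 1 and 43.4 in replicate 2, and the snoRNA genes ZK265.10 (0.07) and Y23H5B.10 (0.13). Closest to sls-2.8 were the snRNA gene M163.13 and the tRNA-Leu gene D1009.t2, both at 0.07, and the tRNA-His gene W09G10.t1 (0.10). Closest to sls-2.9 was M01E5.t1, at 0, because both were assigned the same peak. The tRNA-Arg genes M57.t1 (0.08) and T06H11.t2 (0.11) came next. Signals like those of the members were therefore found at several classes of small RNA gene.

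Genes for making and using spliced leader RNA were also looked up in the main list. Of 42 listed genes for SNAPc, the SL snRNP, Sm proteins, Integrator and the 3′ end machinery, 36 were matched by name and 33 had a ranked summit between 1000 bp before and 250 bp after a transcript start. Such a summit was present at 77.0% of all 19985 protein-coding genes. None of the 36 was thresholded, where 98 of the 19985, or 0.49%, were. A count of none is near that background, so nothing is read from it. Median signal at the 33 was 22.5, beside 22.5 over the 15398 protein-coding genes with a ranked promoter peak. The highest was at ints-4, an Integrator subunit, at 64.8 with an IDR of 0.0147, above sls-2.9 in signal. Next were snpc-3.4, a SNAPc subunit, at 58.1 and ints-8, another Integrator subunit, at 53.0.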

How the data were processed

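Peak lists on ce11 were used as deposited by the authors, 4 ranked and 4 thresholded, and the control that the labels name was not used here. The authors deposited, for each peak, its signal, a score that is a whole number, and an IDR as −log10. The sources used here do not give the aligner, the peak caller or the scaling of signal. Peaks were assigned to a gene when the summit lay within 200 bp of it, with genes from Ensembl release 115 and sequence from RefSeq. In lists comparing replicates, signal is that of the pooled peak. Global alignments scored 1 for a match, 0 for a mismatch, -2 to open and -0.5 to extend a gap. Python 3.11.15, pandas 2.3.3, NumPy 2.4.6 and Biopython 1.88 were used, and the peak assignment was tested on simulated data. The members and lists were chosen with earlier results of these data known, so no test was made. All genes named sls- were accounted for; others were named when thresholded in any list, among the 3 highest non-members or near a member, together with the 3 small RNA genes of most like signal. The labels do not say how the replicate cultures were separated, so the spread between them may be technical. Alternatives were other lists, distances, IDR limits, word lengths and promoter windows.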

Additional observations from a re-analysis of the deposited data

Results flagged for a closer look

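Over the whole main list, 22 peaks passed the IDR threshold but were absent from the authors' thresholded list, and 2 of them lay beside the SL1 genes. The first, at V:17122904-17123227 by the 5S rRNA gene rrn-4.2, reached a signal of 131 (IDR 3.5e-04) at 319 bp from the nearest SL1 gene. The second, at V:17126852-17127175, reached 80.3 (IDR 0.00223) at 391 bp from the nearest SL1 gene. Both lie within the span of repeated SL1 and 5S rRNA genes described above, so their signals cannot be compared with those at the SL2 members. These 2 peaks are reported because no comparison above uses them, and the reason for their absence was not tested.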

How the results depend on the processing

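Of 52 alternative values, 32 stayed within the limits set for them and 20 moved. The limit was the SD of the 2 replicates for signals and offsets and a fixed ratio for counts. For shares of words it was a 95% interval that treats overlapping words as independent. An SD of 2 values is imprecise, and at sls-2.8 it was wide enough that every offset stayed within it, so these totals are a rough guide. With a single replicate the signal ranged from 42.9 to 43.5 at sls-2.2, from 31.9 to 35.9 at sls-2.8 and from 26.9 to 37.0 at sls-2.9, lower than in the main list, whose signal is that of the pooled peak. Summits ranged from -53 to -6, from -172 to -52 and from -185 to -166 bp. From the middle of the gene, the offset was -60.5 bp at sls-2.2 and -238 bp at sls-2.9. Thresholded peaks at sls genes numbered 3 in the main list, 5 in the pooled list, 1 in either replicate alone, 0 at an IDR of at most 0.001 and 7 at an IDR of at most 0.05. Ranked peaks numbered 16, ranging from 13 to 14 in a single replicate and falling to 10 within 100 bp. At sls-2.9 the main list had no peak within 100 bp or overlapping the gene, so those settings gave no value. Unique words rose to 97.0% at sls-2.2 with 75 bases, and at sls-2.9 were 92.2% with 36 and 100% with 75. For pathway genes the pooled list gave 1, ints-4, in place of 0, an alternative chosen after seeing the data. No paired analysis was possible because there is 1 group. Depth is unknown, so no limit could be set on signal that was not called.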
